A study of Mus musculus with 23 samples.

Results

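Neuropeptide genes and markers of interneurons were examined in RNA sequencing of the whole hippocampus. The members were chosen by gene symbol and are Sst, Npy, Cck, Vip, Pvalb, Penk, Pdyn, Tac1, Tac2 and Crh, which are 10 of the 55335 genes in the count table. All 10 passed the filter on low counts in every comparison. The 23 libraries came from female mice of 2 strains. WT mice were C57BL/6J x 129S1 hybrids, and 3xTg mice carried human APPSwe and tauP301L transgenes driven by a Thy1.2 element that is active in neurons. Untreated mice of 8 months formed WT-8M (n = 4) and 3xTg-8M, which had n = 4 as well. At 10 months, mice had received a 28 day infusion into the brain ventricle of either vehicle with 0.8% DMSO (WT-D, n = 4, and 3xTg-D, n = 4) or 80 µM of an inhibitor of stearoyl-CoA desaturase, SCDi (WT-S, n = 3, and 3xTg-S, n = 4). Gene counts per library ran from 12.802M to 36.686M in untreated mice and from 12.993M to 17.576M in infused mice.

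Hippocampal interneurons release GABA and are sorted into classes by the peptides and calcium-binding proteins they make. Somatostatin (Sst) and neuropeptide Y (Npy) cells contact dendrites, parvalbumin (Pvalb) cells contact the soma, and many cells with vasoactive intestinal peptide (Vip) contact other interneurons. Cholecystokinin (Cck) is also made by pyramidal cells, while prodynorphin (Pdyn) and proenkephalin (Penk), the precursors of opioid peptides, are known from granule cells of the dentate gyrus. Peptides are stored in dense-core granules and act on G protein-coupled receptors.

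The start regions of 5 members on which the results turn are given here, since cyclic AMP acts on the Sst and Vip genes through a cyclic AMP response element (CRE). They are RefSeq promoters of GRCm38.p6, with 250 bases before and 50 from the start of transcription, read 5′ to 3′ on the strand of the gene. The start listed first was used for Pvalb and Pdyn, which have 2. Capitals mark the full CRE (TGACGTCA) or its half-site (TGACG), on either strand.
Sst (chr16:23890795-23891094, minus strand): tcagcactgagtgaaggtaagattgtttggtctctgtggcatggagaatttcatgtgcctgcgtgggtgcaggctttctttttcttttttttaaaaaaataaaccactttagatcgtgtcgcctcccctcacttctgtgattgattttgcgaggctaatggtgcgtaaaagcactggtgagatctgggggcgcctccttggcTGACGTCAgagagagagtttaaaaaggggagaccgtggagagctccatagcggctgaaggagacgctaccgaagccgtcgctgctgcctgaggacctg
Vip (chr10:5638968-5639267, plus strand): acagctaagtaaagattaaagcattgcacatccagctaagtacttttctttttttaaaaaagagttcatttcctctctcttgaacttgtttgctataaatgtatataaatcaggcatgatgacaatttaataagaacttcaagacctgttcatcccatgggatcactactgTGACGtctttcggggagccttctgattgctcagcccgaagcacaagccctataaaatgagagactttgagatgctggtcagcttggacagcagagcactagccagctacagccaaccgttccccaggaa
Cck (chr9:121495645-121495944, minus strand): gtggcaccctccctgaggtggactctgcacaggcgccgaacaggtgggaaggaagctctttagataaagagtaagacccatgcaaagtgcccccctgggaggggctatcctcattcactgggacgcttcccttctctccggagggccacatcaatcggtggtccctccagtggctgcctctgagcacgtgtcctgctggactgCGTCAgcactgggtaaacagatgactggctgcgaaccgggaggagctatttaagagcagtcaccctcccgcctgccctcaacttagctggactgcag
Pvalb (chr15:78206351-78206650, minus strand): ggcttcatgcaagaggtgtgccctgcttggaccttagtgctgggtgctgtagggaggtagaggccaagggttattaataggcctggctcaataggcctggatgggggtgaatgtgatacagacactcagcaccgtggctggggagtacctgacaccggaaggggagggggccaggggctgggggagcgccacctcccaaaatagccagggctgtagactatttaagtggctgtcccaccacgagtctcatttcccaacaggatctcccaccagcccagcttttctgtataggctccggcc
Pdyn (chr2:129699889-129700188, minus strand): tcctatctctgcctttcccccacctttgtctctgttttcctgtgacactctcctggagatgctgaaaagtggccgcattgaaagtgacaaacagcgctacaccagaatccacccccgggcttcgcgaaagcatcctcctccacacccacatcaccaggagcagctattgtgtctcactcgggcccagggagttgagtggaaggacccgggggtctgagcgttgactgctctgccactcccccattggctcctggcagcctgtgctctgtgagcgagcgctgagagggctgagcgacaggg

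The full CRE stood in the Sst promoter alone among the promoters of 8 members that could be matched, at position -48 from the start. It was held by 1.79% of the 32851 mouse promoters searched. The half-site lies inside the full element and stood in 4 of the 8 members, Sst, Cck, Vip and Tac1, against 20.8% of all promoters. In Vip it began at position -79. The TATA box (TATAAA, either strand) was found in Vip only, against 13.6% of all promoters, and the AP-1 site (TGANTCA, either strand) in none of the 8, against 7.81%. These are matches of letters and not measurements of binding.

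Levels were compared between members as CPM, the read count scaled to the library total, per kilobase of annotated exons, as means over all 23 libraries. Sst had the highest level, 175.6 CPM per kb, followed by Cck with 158.3 and Npy with 77.3. The ranges of Sst and Cck over libraries overlapped, at 132.4 to 223.1 and 113.4 to 209.0 CPM per kb. By CPM alone, Cck stood above Sst, with means of 206.6 and 126.6. The order of these 2 rested on exon length, 721 nt for Sst and 1305 nt for Cck, whose longest transcript had 799 nt. Pvalb followed with 30.0 and Penk with 17.0 CPM per kb, and these ranges did not overlap. Vip stood at 6.97, Pdyn at 5.21 (range 3.69 to 7.10), Tac1, the precursor of substance P, at 2.82, Tac2, the precursor of neurokinin B, at 1.75 and corticotropin-releasing hormone (Crh) at 1.34 CPM per kb. The lowest counts were 22 to 104 reads a library for Tac2 and 13 to 81 for Crh, so that small differences in these were not detectable at this depth.

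**Figure D1:**
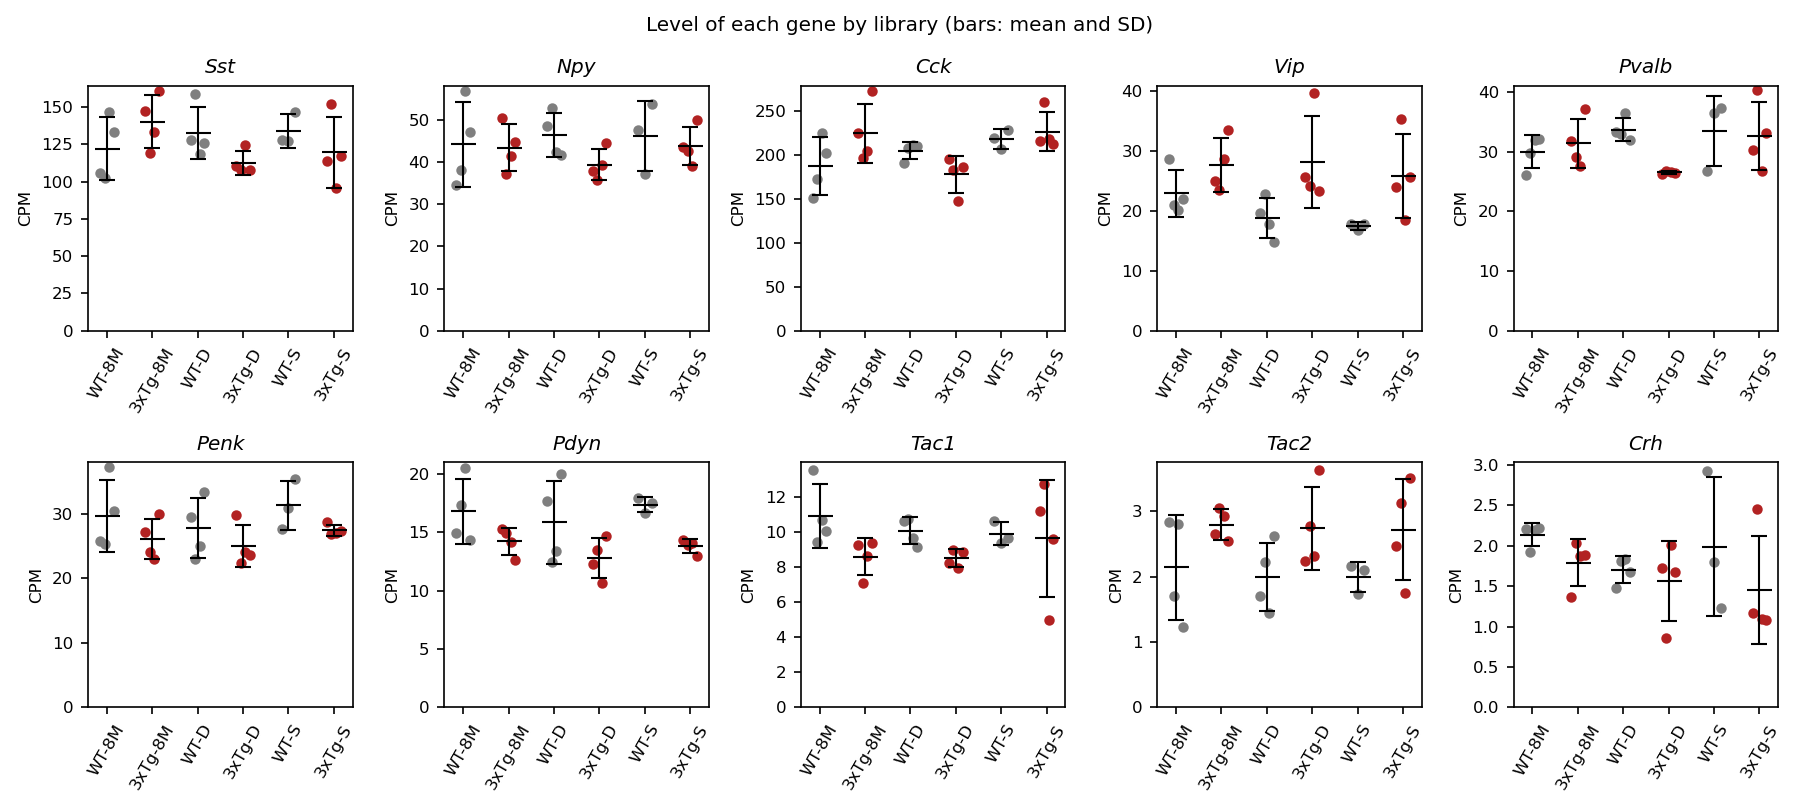
Level of each member in every library, in CPM on a linear axis from 0, with 1 panel a gene. Points are libraries (grey, WT; red, 3xTg), and bars give the mean and SD of a group. The 4 Pvalb values of 3xTg-D lie between 26.3 and 26.8 CPM, closer together than sampling of reads usually gives. A single Vip value of 3xTg-D stands at 39.6 CPM.

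The first comparison asked whether the strains differed at 8 months, before any infusion. No member was called (adjusted p under 0.05 by edgeR's quasi-likelihood test with Benjamini-Hochberg adjustment over all genes), against 2.58% of all genes tested, and the DESeq2 likelihood ratio test also called 0. An unadjusted p under 0.05 was reached by 1 member, against 17.4% of all genes. That member was Tac1, with 13.5, 9.40, 10.7 and 10.1 CPM in WT-8M and 9.24, 7.11, 8.63 and 9.38 CPM in 3xTg-8M. All 3xTg-8M values were below all WT-8M values, a separation seen in 11.1% of all genes, and the log2 fold change was -0.34 (SE 0.14, adjusted p = 0.241 by edgeR). Vip had 20.1 to 28.7 CPM in WT-8M and 23.5 to 33.5 in 3xTg-8M, which overlapped, with a log2 fold change of 0.26 and a 95% interval from -0.05 to 0.57. Cck had 188.1 ± 32.8 CPM (SD, n = 4) in WT-8M and 224.9 ± 34.1 (SD, n = 4) in 3xTg-8M, and the interval of its log2 fold change ran from -0.03 to 0.56. Without 3xTg-8M replicate 4, the log2 fold change was 0.14 for Vip and 0.15 for Cck.

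The next comparison asked whether the strains differed at 10 months under vehicle. Pvalb, the calcium buffer of fast-spiking interneurons, was lower in 3xTg-D and was the 1 member called, against 1.39% of all genes. Pvalb had 33.3, 33.1, 36.4 and 32.0 CPM in WT-D and 26.3, 26.8, 26.7 and 26.5 CPM in 3xTg-D. The groups did not overlap, and the mean ± SD was 33.7 ± 1.92 CPM (n = 4) in WT-D and 26.6 ± 0.189 (n = 4) in 3xTg-D. The 3xTg-D values rest on 365 to 438 reads a library. Their SD, 0.712% of the mean, is smaller than sampling of so few reads usually gives. It is therefore not a measure of how alike the mice were. The log2 fold change was -0.36 (SE 0.07, adjusted p = 0.0175 by edgeR). The call was lost without 3xTg-D replicate 1, 2 or 4 (adjusted p up to 0.0624) and with all 15 libraries of 10 months in 1 fit or a block for runs of animal numbers (up to 0.102). In bulk tissue, fewer cells of a type and less RNA per cell cannot be told apart.

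Vip went the other way under vehicle. It had 19.6, 22.9, 17.8 and 14.9 CPM in WT-D and 25.6, 24.1, 39.6 and 23.3 CPM in 3xTg-D. The groups did not overlap, although replicate 3 of 3xTg-D stood far above the other 3. The log2 fold change was 0.57 (SE 0.17) and did not pass the adjustment (adjusted p = 0.150 by edgeR). It was called by DESeq2 and in edgeR with no filter on low counts, and not under the other 4 alternatives that kept all libraries, in which the adjusted p was up to 0.191. Without that replicate it was 0.38 (adjusted p = 0.227 by edgeR). The same replicate had the highest summed level of the thalamus and habenula markers of all libraries, 189.4 CPM against 124.3 to 152.6 in the other 3 of 3xTg-D, and its part in the result was not tested.

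Of the 10 members, 8 had a lower and 2 a higher fitted value in 3xTg-D, with a median log2 fold change of -0.23 against 0.00 over all genes. At an unadjusted p under 0.05, 6 passed (13.1% of all genes did), namely Pvalb, Sst, Npy, Cck and Tac1 with lower values and Vip with higher. Of these, Pvalb, Sst and Vip (3 members) also passed an unadjusted p under 0.01, against 4.95% of all genes. Tac1 also showed no overlap, at 9.15 to 10.7 CPM in WT-D and 7.92 to 8.98 in 3xTg-D, so that 3 members separated the groups, against 7.28% of all genes. Sst had 132.7 ± 17.7 CPM (SD, n = 4) in WT-D and 112.6 ± 7.85 (SD, n = 4) in 3xTg-D, with overlapping ranges, a log2 fold change of -0.25 and an adjusted p of 0.191 by edgeR.

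**Figure D2:**
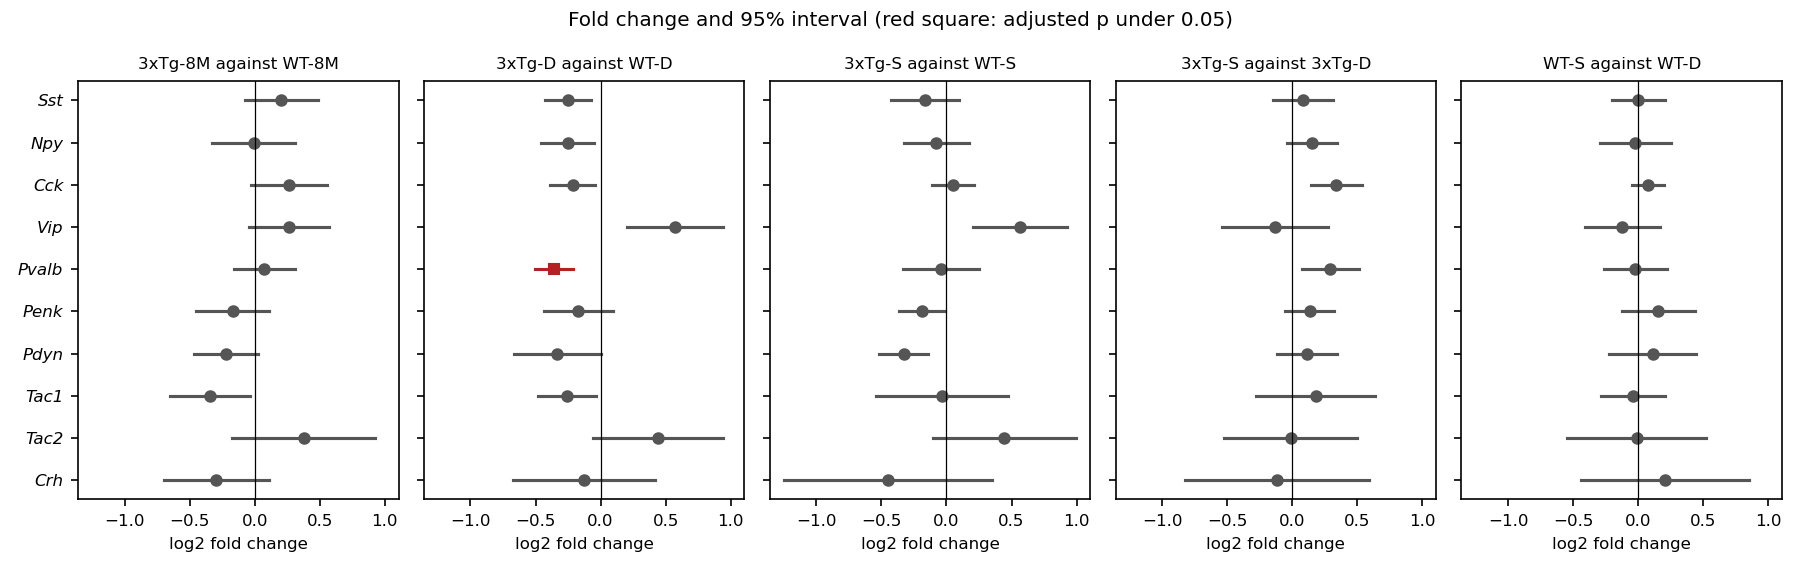
Fitted log2 fold change of each member (point) with its 95% interval (line) in 5 comparisons, on a shared linear axis. Red squares mark an adjusted p under 0.05, which Pvalb alone reached, in 3xTg-D against WT-D.

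Under the inhibitor, the strain comparison gave 0 calls (1.32% of all genes, and 0 by DESeq2). Members at an unadjusted p under 0.05 numbered 3 (10.6% of all genes), Vip, Pdyn and Penk, and at an unadjusted p under 0.01, 2 of these did, Vip and Pdyn (4.14% of all genes). Pdyn had 17.9, 16.7 and 17.5 CPM in WT-S and 14.3, 13.9, 14.1 and 13.0 CPM in 3xTg-S. The groups did not overlap, and the log2 fold change was -0.33 (SE 0.09, adjusted p = 0.128 by edgeR). Vip had 17.8, 16.7 and 17.8 CPM in WT-S and 23.9, 35.2, 18.4 and 25.6 CPM in 3xTg-S. These groups did not overlap either, although the lowest 3xTg-S value lay close to WT-S, and the log2 fold change was 0.56 (SE 0.17, adjusted p = 0.178 by edgeR). Groups separated in this way in 10.6% of all genes. Without WT-S replicate 2 and 3xTg-S replicate 2, which were high in choroid plexus markers, Vip was at 0.36 (unadjusted p = 0.0273 by edgeR) and Pdyn at -0.35 (unadjusted p = 0.00726). Sst then had -0.33 (unadjusted p = 0.00576 by edgeR), while Penk had -0.18 with an unadjusted p of 0.0997, and none was called. Pvalb had 26.7 to 37.3 CPM in WT-S and 26.8 to 40.3 in 3xTg-S, and the interval of its log2 fold change ran from -0.33 to 0.25.

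Strain was then tested over both infusions, with all 15 libraries of 10 months and the infusion as a term. Vip was called higher in 3xTg, by 0.57 on the log2 scale (SE 0.13, adjusted p = 0.0105 by edgeR), and Pdyn was called lower, with -0.33 (SE 0.09, adjusted p = 0.0370 by edgeR). These were 2 of 10 members, against 6.53% of all genes. DESeq2 called 2 members, against 1283 of 16262 genes. Vip stayed called whichever library was left out, with log2 fold changes from 0.46 to 0.62. Pdyn was called in 4 of the 15 fits that left out 1 library, with an adjusted p of up to 0.0866. An unadjusted p under 0.05 was reached by 7 members (19.7% of all genes), Vip and Tac2 with higher and Sst, Npy, Pvalb, Penk and Pdyn with lower values. Tac2 had a log2 fold change of 0.44 with an interval from 0.09 to 0.80 (adjusted p = 0.141 by edgeR).

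In 3 libraries, 3xTg-8M replicate 4, WT-S replicate 2 and 3xTg-S replicate 2, choroid plexus markers summed to more than 2 times the median of all libraries, at 579.4 to 770.4 CPM against a median of 244.6. Without WT-S replicate 2 and 3xTg-S replicate 2, the strain fit over both infusions called 2 members that were in part others, against 989 genes. Vip stayed called with 0.49 (adjusted p = 0.0313 by edgeR), Sst joined with -0.28 (adjusted p = 0.0165 by edgeR), and Pdyn was at -0.34 with an adjusted p of 0.0718. Sst was also called with the length and GC trend removed, in all libraries. Sst had 127.4 to 146.9 CPM in WT-S and 114.0, 151.9, 95.5 and 117.1 CPM in 3xTg-S, where the highest value came from replicate 2.

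The remaining members had ranges that overlapped between strains at 10 months. Npy had 41.7 to 52.8 CPM in WT-D, 35.7 to 44.4 in 3xTg-D, 37.2 to 53.6 in WT-S and 39.04 to 50.02 in 3xTg-S. Penk had 23.1 to 33.5, 22.4 to 29.8, 27.7 to 35.4 and 26.9 to 28.7 CPM in the same order of groups. Both opioid precursors thus had lower means in 3xTg than in WT mice under either infusion, and Pdyn alone was called. Tac2 had 1.45 to 2.62, 2.24 to 3.62, 1.73 to 2.15 and 1.75 to 3.52 CPM in that order. Crh had 1.48 to 1.84, 0.859 to 2.01, 1.23 to 2.92 and 1.08 to 2.46 CPM, and the interval of its log2 fold change over both infusions ran from -0.75 to 0.20.

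3xTg-S against WT-D set treated 3xTg mice against vehicle WT mice. No member was called, against 2.29% of all genes, and DESeq2 called 0. At an unadjusted p under 0.05, 1 member passed, Vip with a log2 fold change of 0.44, against 16.9% of all genes. Cck was the 1 member with no overlap, at 191.0 to 211.7 CPM in WT-D and 212.4 to 260.3 in 3xTg-S, against 10.1% of all genes. Without 3xTg-S replicate 2, high in choroid plexus markers, Vip was at 0.27 with an unadjusted p of 0.0952 by edgeR. Below an unadjusted p of 0.05 were then Sst at -0.29 and Crh at -0.61, and none was called (adjusted p of 0.196 and 0.214 by edgeR).

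For the inhibitor in 3xTg mice, no member was called in 3xTg-S against 3xTg-D, where 0.00% of all genes were, and DESeq2 called 0. DESeq2 gave no adjusted p for 10538 of the 15530 genes tested there. A gene without one was counted as not called, so its 0 may not rest on every member. At an unadjusted p under 0.05, 2 members passed, Cck and Pvalb, against 11.2% of all genes, and Cck also at an unadjusted p under 0.01, against 2.52%. Cck had 196.1, 182.9, 148.0 and 187.0 CPM in 3xTg-D and 216.9, 260.3, 218.6 and 212.4 CPM in 3xTg-S. Every 3xTg-S value was above every 3xTg-D value, and the log2 fold change was 0.34 (SE 0.09, adjusted p = 0.378 by edgeR). Pvalb had 26.3 to 26.8 CPM in 3xTg-D and 30.3, 40.3, 26.8 and 33.2 CPM in 3xTg-S. These did not overlap by a narrow margin, and the log2 fold change was 0.29 (SE 0.10, adjusted p = 0.378 by edgeR). Such separation was seen in 6.89% of all genes. With a trend on transcript length and GC content removed from each library, the log2 fold changes were 0.17 for both Cck and Pvalb. Without 3xTg-S replicate 2, which held the highest Cck and Pvalb values, Pvalb was at 0.18 (unadjusted p = 0.0349 by edgeR) and Cck at 0.27 (unadjusted p = 0.00814 by edgeR). Of the 28 genes of GABAergic interneurons, 6 had higher and 22 lower values in 3xTg-S, none was called, and 7 passed an unadjusted p under 0.05, all of them lower. Their median log2 fold change was -0.11 against 0.00 over all genes, and its part in the Cck and Pvalb differences was not tested. Comparisons that share the 3xTg-D libraries are not independent.

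In WT mice, no member was called between WT-S and WT-D, where 0.00% of all genes were, and DESeq2 called 0. None passed an unadjusted p under 0.05, against 3.42% of all genes, and none separated the groups, against 4.94%. The 95% interval of the log2 fold change ran from -0.04 to 0.20 for Cck and from -0.27 to 0.22 for Pvalb. Over both strains, the inhibitor term called 0 members (0.00% of all genes, and 0 by DESeq2). Here too DESeq2 gave no adjusted p for many genes, 10089 of 16262, and these were counted as not called. Cck alone passed an unadjusted p under 0.05 (13.6% of all genes) and under 0.01 (4.00%), at 0.22 on the log2 scale (SE 0.06, adjusted p = 0.241 by edgeR). With the length and GC trend removed, it was 0.07 (adjusted p = 0.801 by edgeR). The interaction of strain and inhibitor also called 0 (0.00% of all genes, and 0 by DESeq2). Cck alone passed an unadjusted p under 0.05 there, with 0.27 and an interval from 0.02 to 0.51, against 2.32% of all genes. Without the libraries high in choroid plexus markers it was 0.17, with an unadjusted p of 0.178 by edgeR. For Vip the interaction was -0.01, with an interval from -0.57 to 0.55.

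The strain difference under vehicle at 10 months was also set against that at 8 months. Age, infusion and any difference in sequencing between these sets of libraries cannot be told apart in it. Sample titles carry an L before HPP at 8 months and none at 10 months. What the L marks is not stated, and it cannot be told apart from age either. No member was called, against 0.0621% of all genes, and DESeq2 called 0. At an unadjusted p under 0.05, 3 members passed (9.57% of all genes), and Pvalb did so under 0.01 (2.19% of all genes). The difference was -0.43 for Pvalb (interval from -0.70 to -0.16), -0.48 for Cck (-0.84 to -0.12) and -0.45 for Sst (-0.80 to -0.11) on the log2 scale, with adjusted p-values of 0.412 to 0.460 by edgeR. Cck and Sst had higher means in 3xTg-8M than in WT-8M and lower means in 3xTg-D than in WT-D.

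Genes of the same pathway were counted in the strain fit over both infusions, in which 6.53% of all genes were called. Of 20 receptors and binding proteins of these peptides, 18 were tested, 1 was called lower and 0 higher. It was Crhbp, which binds Crh outside cells, with 36.4 ± 3.33 CPM (SD, n = 4) in WT-D, 28.5 ± 4.26 (SD, n = 4) in 3xTg-D, 37.3 ± 2.10 (SD, n = 3) in WT-S and 28.7 ± 5.10 (SD, n = 4) in 3xTg-S. Its log2 fold change was -0.37 (SE 0.08, adjusted p = 0.00868 by edgeR). Of 12 genes of prohormone processing and dense-core granules, 10 had lower values and none was called, and Scg2, a granule protein, had the smallest unadjusted p, with a log2 fold change of -0.14. Of 17 other neuropeptides, 11 were tested and 2 were called lower, Vgf, a granin precursor, at -0.41 and Cort, a relative of Sst, at -0.50.

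Of 28 genes of GABAergic interneurons, 14 had higher and 14 lower values in this fit, and 1 was called higher and 5 lower. The median log2 fold change was -0.01 against 0.00 over all genes. Htr3a, the serotonin receptor of the interneuron classes that include Vip cells, was higher in 3xTg at 0.90 (SE 0.13, adjusted p = 0.000277 by edgeR). It had 9.09 ± 3.46 CPM (SD, n = 4) in WT-D and 16.4 ± 2.01 (SD, n = 4) in 3xTg-D. At 8 months, Htr3a had 9.74 ± 1.67 CPM (SD, n = 4) in WT-8M and 14.0 ± 1.24 (SD, n = 4) in 3xTg-8M. Called lower were Kit at -0.53, Syt2 at -0.48, Ndnf at -0.24, Reln at -0.22 and Lamp5 at -0.20. At 8 months, Kit had 135.6 ± 11.6 CPM (SD, n = 4) in WT-8M and 89.8 ± 5.06 (SD, n = 4) in 3xTg-8M. Of the 28 genes, 1 was called higher and 2 lower at 8 months, against 2.58% of all genes. Syt2, a synaptotagmin of Pvalb cell terminals, was also called lower at 8 months, with -0.65 (SE 0.09, adjusted p = 0.00293 by edgeR), where Pvalb was at 0.07 with an interval from -0.16 to 0.31. Single genes of this list do not stand for a cell class, since others moved little or otherwise. In WT-D and 3xTg-D, mean levels were 137.9 and 138.9 CPM for Kcnc1, 15.5 and 17.7 for Lhx6, and 44.7 and 38.7 for Calb2.

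Members were compared across libraries after the mean of each group was removed, over 23 libraries and 45 pairs. By Pearson's r, no pair passed an adjusted p under 0.05 in permutations within groups, while by Spearman's rho 3 pairs did. Vip and Pdyn varied in opposite directions, with r = -0.64 (permutation p = 0.00265, adjusted p = 0.0648) and rho = -0.68 (permutation p = 0.0019, adjusted p = 0.0285). Without the 2 libraries farthest from the median, r was -0.64, and it was -0.72 within 8 months and -0.61 within 10 months. Sst and Npy varied together, with r = 0.66 (permutation p = 0.00522, adjusted p = 0.0648) and rho = 0.74 (permutation p = 0.00118, adjusted p = 0.0285), and r was 0.76 without 2 libraries, 0.90 within 8 months and 0.40 within 10 months. Cck and Pvalb had r = 0.58 (permutation p = 0.00302, adjusted p = 0.0648) and rho = 0.67 (permutation p = 0.00141, adjusted p = 0.0285), with r = 0.58 without 2 libraries, 0.92 within 8 months and 0.29 within 10 months.

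**Figure D3:**
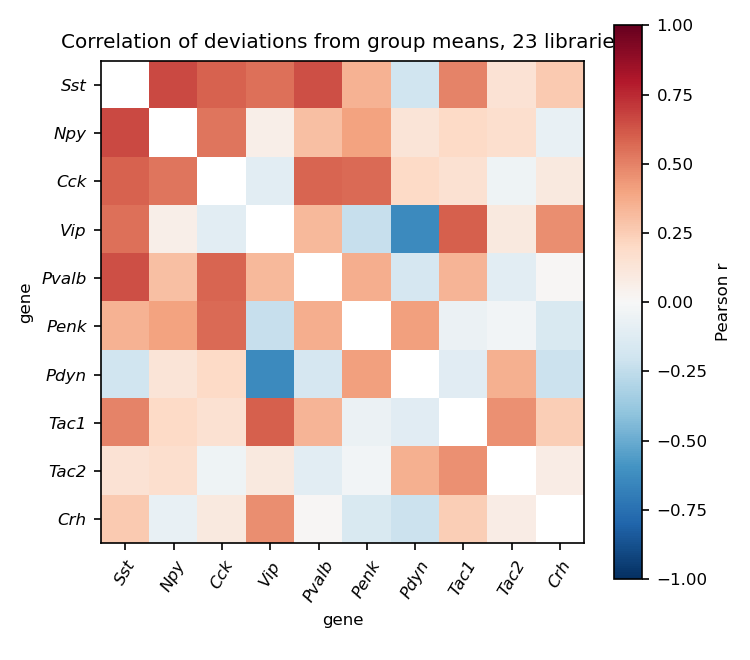
Pearson r between members over 23 libraries, after the mean of each group was removed (red, positive; blue, negative; scale from -1 to 1). Vip against Pdyn is at -0.64, and Sst against Npy at 0.66.

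The same was done for each member against the summed level of 6 lists of marker genes, 60 pairs in all, a comparison added after the data were seen. By Pearson's r, 4 pairs passed an adjusted p under 0.05, and by Spearman's rho none did. Vip fell as the markers of hippocampal principal neurons rose, with r = -0.76 (permutation p = 0.00042, adjusted p = 0.0252) and rho = -0.67 (permutation p = 0.00275, adjusted p = 0.0704). Without 2 libraries r was -0.68, and it was -0.76 within 8 months and -0.82 within 10 months. The principal neuron sum was 1891 to 2085 CPM in WT-D and 1714 to 1964 in 3xTg-D, 1935 to 2092 in WT-S and 1719 to 2043 in 3xTg-S, and 1540 to 1915 in WT-8M and 1699 to 1988 in 3xTg-8M. The ranges overlapped in each pair, the mean was lower in 3xTg at 10 months and higher at 8 months, and its part in the Vip difference was not tested. In the strain fit over both infusions, 3 of these 10 markers had higher and 7 lower values, and 3 were called lower. C1ql2 had a mean of 61.9 CPM in WT-D and 24.25 in 3xTg-D, while Neurod6 had 290.4 and 288.2. A lower sum thus need not mean a lower level of every marker. The sum also weighs each marker by its level. Slc17a7 alone had a mean of 961.1 CPM in WT-D, where the sum had a mean of 1956. Cck fell as the thalamus and habenula markers rose, with r = -0.71 (permutation p = 0.00273, adjusted p = 0.0471) and rho = -0.64 (permutation p = 0.00469, adjusted p = 0.0704), and r was -0.65 without 2 libraries, -0.80 within 8 months and -0.70 within 10 months. Npy also fell as these markers rose, with r = -0.62 (permutation p = 0.00314, adjusted p = 0.0471) and rho = -0.61 (permutation p = 0.00804, adjusted p = 0.0804), and r was -0.71 without 2 libraries, -0.92 within 8 months and -0.41 within 10 months. Cck fell as the sum of the GABAergic interneuron genes rose, with r = -0.75 (permutation p = 0.0029, adjusted p = 0.0471) and rho = -0.665 (permutation p = 0.00792, adjusted p = 0.0804), and r was -0.61 without 2 libraries, -0.93 within 8 months and -0.44 within 10 months. The hypothalamus markers, counted for traces of that nearby tissue, summed to 1.96 to 8.95 CPM. Of these 10, 5 had at most 3 counts in any library. The striatum and amygdala markers summed to 54.5 to 91.0 CPM. In the strain fit over both infusions, 8 of them were tested, 1 was higher and 7 lower, and 1 was called lower. Whether Crh, Penk or Tac1 reads came from nearby tissue was not tested.

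**Figure D4:**
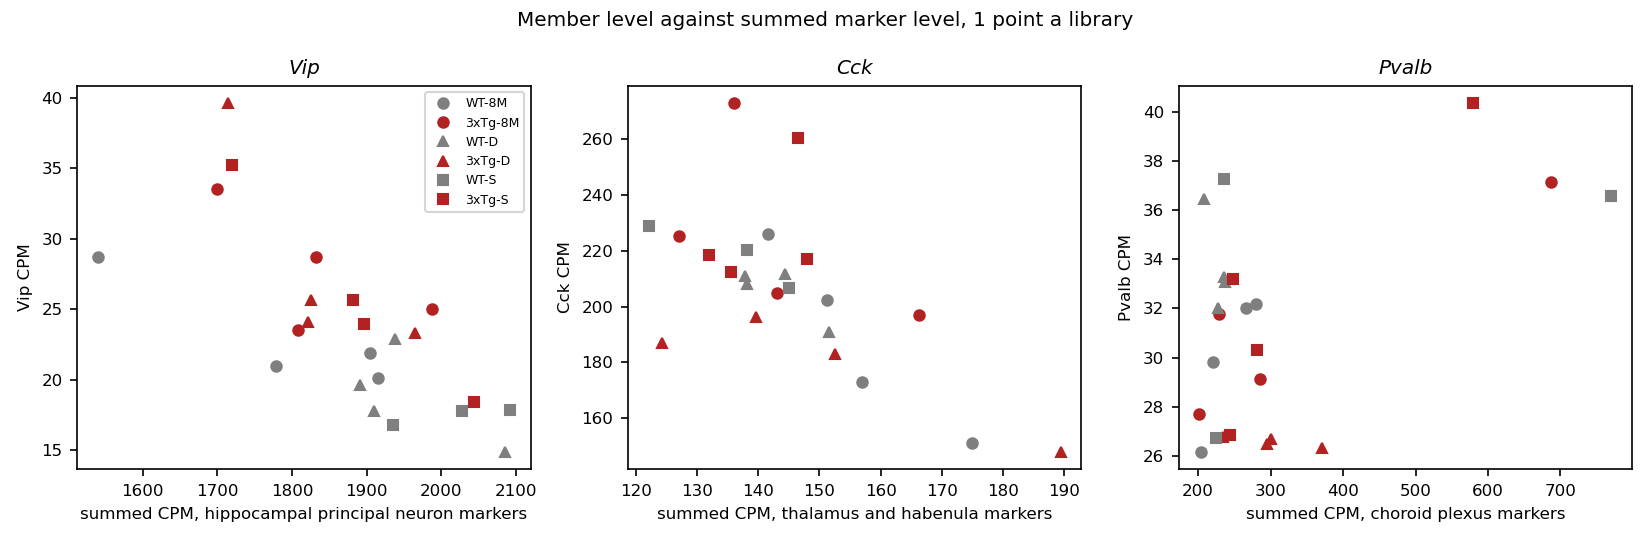
Level of Vip, Cck and Pvalb (CPM) against the summed CPM of 1 list of marker genes, with 1 point a library (grey, WT; red, 3xTg; circles, 8 months; triangles, vehicle; squares, inhibitor). Vip is high where the principal neuron sum is low, and the 3 points far to the right in the Pvalb panel are the libraries over 579 CPM of choroid plexus markers.

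The genes whose deviations were most like those of a member were sought among the 11650 genes whose mean reached 5 CPM, as a description over 23 libraries. For Vip they were Snhg1 (r = 0.89), Rnf227 (0.86) and Nap1l5 (0.84). For Pvalb they were Eid2 (0.91), Clta (0.88) and Cystm1 (0.86), and for Cck they were Acot7 (0.94), Tmem160 (0.92) and Capns1 (0.92). For Pdyn they were Zfp324 (0.81), Cyth4 (0.76) and C2cd2l (0.73).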

How the data were processed

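The 23 libraries of mouse hippocampus were analysed from the deposited table of raw counts per gene, which carries no normalisation by the authors. Per the study's methods and processing notes, the authors used Trimmomatic 0.35 for trimming and STAR 2.5.1b for alignment to GRCm38 with a Gencode annotation. Per the study's methods, libraries were ligated to adapters with unique molecular identifiers. Whether reads were collapsed by these, and the strand setting, were not given in the sources used here. Rows that name no gene (24.7% to 30.9% of reads) were left out.

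Pairwise comparisons used only the libraries of both groups, in edgeR 4.0.16 in R 4.3.3 (filterByExpr, TMM, quasi-likelihood test, Benjamini-Hochberg adjustment over all genes tested), and the procedure was tested on simulated data. Alternatives were DESeq2 1.42.0, its size factors, no filter, a length and GC trend, 1 fit of 15 libraries, a block for runs of 4 animal numbers, and leaving out each library. Leaving out the 3 libraries high in choroid plexus markers was added after the data were seen. Correlations used log2 CPM and 100000 permutations within groups. All 10 members are named. List genes were counted in full and named where called or smallest in unadjusted p. Kcnc1, Lhx6, Calb2, Neurod6 and Slc17a7 were named outside this rule, as examples. The 3 genes most like a member were named for members on which results turn. The members and lists were chosen with earlier results of these data known. Labels do not say that replicates were more than separate samples. Titles give each library its own number, and the study counts the infused groups in mice. Each p-value sets a difference between groups against the spread between these samples. One item of the strain description is not reported here.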

Additional observations from a re-analysis of the deposited data

Results flagged for a closer look

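A library stood far from the others of its group, by Dixon's test at 95%, in 6 of the 50 combinations of a member and a group of 4 libraries. The nominal level of 5% holds for independent values, and these combinations share libraries. The share over all genes was not computed, so no excess can be read from the 6. In 3xTg-D replicate 3, Vip was at 39.6 CPM against 23.3 to 25.6 in the other 3 libraries, and Sst at 124.3 against 107.7 to 110.4. In 3xTg-S replicate 2, Cck was at 260.3 CPM against 212.4 to 218.6, and Crh at 2.46 against 1.08 to 1.17. Cck was at 191.0 CPM in WT-D replicate 1 against 208.2 to 211.7, and Crh at 1.92 CPM in WT-8M replicate 2 against 2.19 to 2.23.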

How the results depend on the processing

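In 3xTg-D against WT-D, where 1 member was called, 3 passed an unadjusted p under 0.01, 3 were called with no filter, 2 by DESeq2 (Pvalb and Vip), 0 with all 15 libraries in 1 fit, 0 with the block for runs of animal numbers, and 0 to 1 without 1 library. With no filter, 1 member was called in 3xTg-S against WT-S (729 of 30295 genes) and 1 in 3xTg-S against WT-D (1135 of 30873). It was also 1 in 3xTg-S against 3xTg-D (112 of 30702) and 1 for the inhibitor over both strains (94 of 32968). The main fits of these comparisons called 0 members. At an unadjusted p under 0.01, 2 passed in 3xTg-S against WT-S (4.14% of all genes) and 1 in 3xTg-S against 3xTg-D (2.52%). For the inhibitor over both strains 1 passed (4.00%), and for the strain effect between ages 1 did (2.19%). Without 1 library, 3xTg-S against WT-S gave 0 to 1, with the 1 found without 3xTg-S replicate 3 (150 of 15547 genes). Strain over both infusions gave 1 to 2 without 1 library, against 843 to 1102 genes. Of the pairs of members, 0 passed by Pearson's r, 3 by Spearman's rho, 2 without the 2 farthest libraries and 1 within 10 months. The causes were not tested. Of 1690 fitted values of members under alternatives, 0 called values changed sign, 17 lost and 15 gained a call, and 117 values called in neither fit changed sign. Replicate numbers followed the order of the samples and paired none. The block for runs of animal numbers at 10 months rests on the titles alone, which name no shared litter or day.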
